A study of Triticum aestivum with 4 samples.

Results

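Membrane transport genes encode the proteins that move ions, sugars, amino acids, lipids and toxic compounds across the membranes of a plant cell. Carriers and exchangers bind a solute and move it, often against a flow of protons, channels open a path along a gradient, and pumps spend ATP. In a germinating seed such proteins take part in moving reserves to the growing axis and in setting the ion balance behind water uptake. Methylation of cytosine in plants is kept at symmetric CpG and CHG sites and at asymmetric CHH sites, where H is any base but G, and each context has its own methyltransferases.

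The genes were chosen by words in the deposited gene descriptions (transporter, transporting, transport protein, DETOXIFICATION, aquaporin, channel, exchanger, antiporter, symporter, permease or glutamate receptor), leaving out descriptions with the words chloroplast or mitochondrial. This gave 24 of 3119 listed regions, namely 2 of 634 CpG regions, 14 of 1745 CHG regions and 8 of 740 CHH regions. Every region belonged to a different gene, so 24 genes were covered and none was listed in more than 1 context. Descriptions existed for 468 regions, so a transport gene without one could not be found. The choice did not use methylation levels, but every region in the lists had already been selected by the authors for a difference between the libraries.

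The study compared 7-day seedlings of the winter wheat breeding line SE15 grown from untreated or ultrasound-treated seeds. Dry seeds at 13.6% water, 100 per group, were either left untreated (control) or exposed in open dishes, 4 cm from the head, to 30 kHz ultrasound at 70 W for 5 min. Both groups then germinated in the dark at 20 °C. Methylation was measured by enzymatic methyl-seq, which converts unmethylated cytosines with enzymes, per the labels' protocols, while the library titles read WGBS. The labels name 2 libraries per group, and their design text speaks of 3 biological samples per group.

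The values below come from a single library of each group, called control and treated seedlings, so each value is a single measurement with no replicate check, and no test between groups was run. The control column is headed K1, a name whose letter is unexplained in the labels, and was assigned to the first control library by its number and because the other column is the ultrasound one. If that were wrong, the control side of each value would be wrong too. A level is the methylation of a region in percent, and a difference is ultrasound minus control in percentage points. Read depth is unknown, so no error can be attached to a level. "Lower" and "higher" describe the ultrasound library against the control library.

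Methylation of most transport regions was lower in seedlings from ultrasound-treated seeds. Both levels were given for 19 of the 24 regions, and 17 of these 19 were lower, or 89.5% (95% exact binomial interval 66.9 to 98.7, counting error over regions only). Over all listed regions with both levels, these 19 included, 76.8% were lower, and over those with a gene description 76.0%. Both shares lie inside the interval, but regions are not replicates and the shares were not tested against each other. The median difference of the 19 regions was -9.13 points (order-statistic interval -15.0 to -5.61), beside -10.1 points over all 2705 listed regions with levels. The largest decreases belonged to a sodium/hydrogen exchanger and a potassium transporter. The pair of higher regions lay upstream of a DETOXIFICATION gene and a chloride channel gene, both in CHH and both listed at 0% in the control library.

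**Figure D1:**
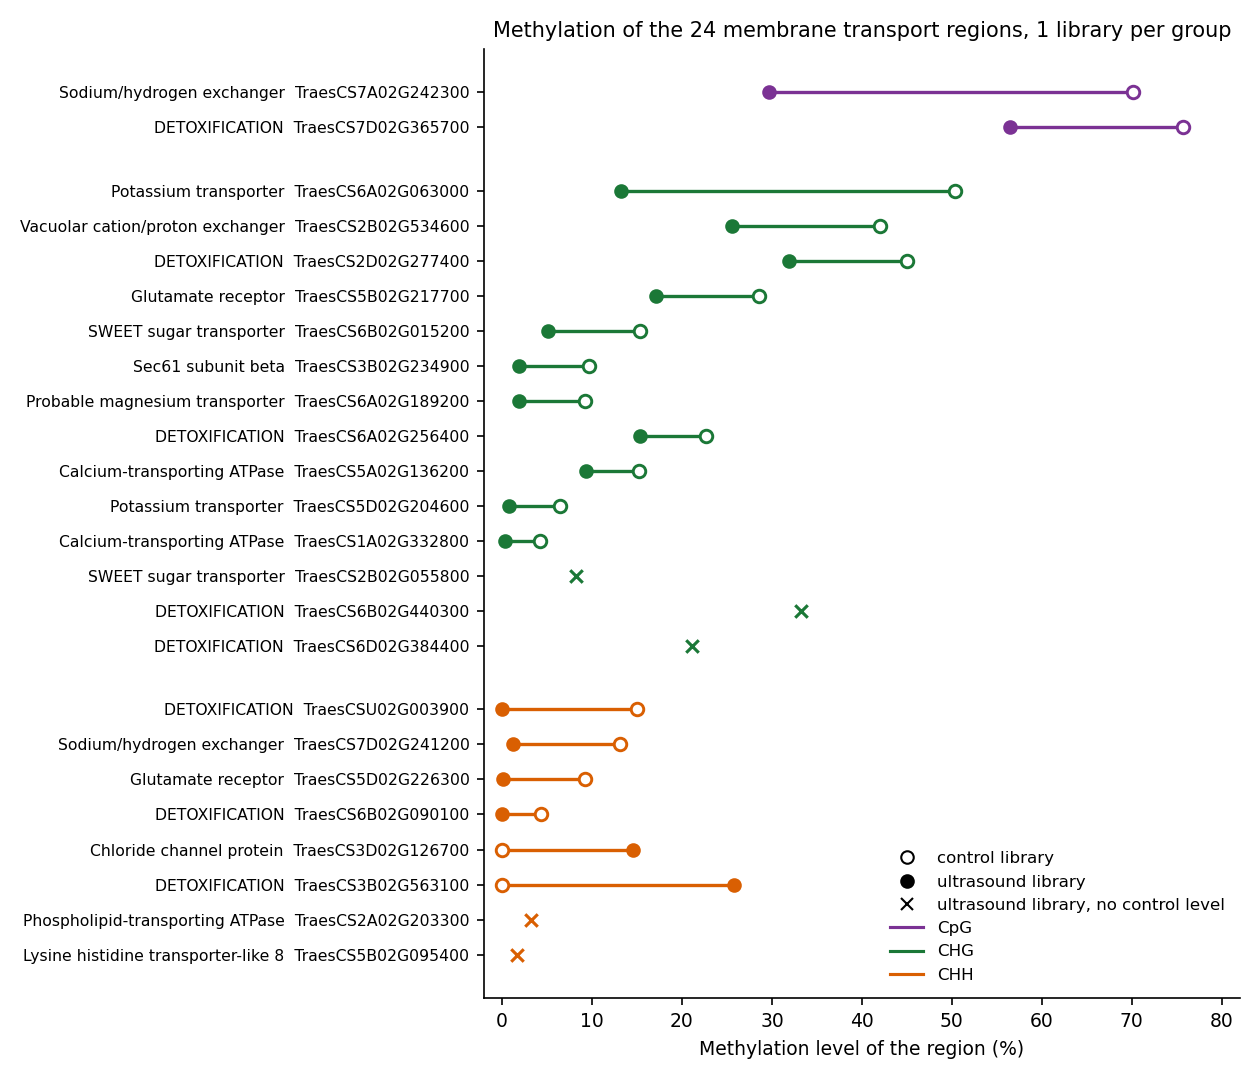
Methylation level in percent (x axis) of each of the 24 transport regions (y axis, product and gene), by context. Open circles are the control library, filled circles the ultrasound library, and crosses are regions without a control level. In 17 of 19 regions with both levels the filled circle lies to the left.

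Because the genes were chosen by words in their descriptions, the descriptions are no check of the label. Of the 24, 23 were described as carriers, exchangers, pumps, channels or channel-like receptors for solutes, ions or lipids. The remaining one encoded Sec61 subunit beta, a part of the protein-conducting channel of the endoplasmic reticulum, which moves proteins rather than solutes. Aquaporin, antiporter, symporter and permease matched no listed gene. Genes described as Protein DETOXIFICATION were the most frequent, with 8 of the 24 regions.

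Carriers of sodium, potassium, magnesium and vacuolar cations were lower in all 6 regions, each with both levels, beside 76.8% of all listed regions with levels. A sodium/hydrogen exchanger (TraesCS7A02G242300), of a family that trades sodium for protons across membranes, was methylated in CpG at 70.1% in control and 29.7% in treated seedlings, a difference of -40.4 points. The region was 535 bp long and overlapped the gene (7A, 217587246 to 217587780). Of the 480 CpG regions with levels, 7.92% showed a larger decrease. A second sodium/hydrogen exchanger gene (TraesCS7D02G241200) had a CHH level of 13.1% in control and 1.18% in treated seedlings, 1270 bp downstream of the gene (7D, 205555525 to 205555813). The same product name was therefore lower in both contexts, at levels of very different height.

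Potassium transporters, which bring potassium into cells or move it between compartments, were lower in both listed genes. Both regions were in CHG, where 78.2% of all regions with levels were lower. TraesCS6A02G063000 was methylated in CHG at 50.3% in control and 13.2% in treated seedlings, a difference of -37.1 points, over 2566 bp located 1960 bp upstream (6A, 33587996 to 33590561). It was the region with the 10th largest decrease among 1557 CHG regions. TraesCS5D02G204600 had 6.39% in control and 0.773% in treated seedlings, 684 bp downstream of the gene (5D, 309789907 to 309791450). The first gene had the higher level in both libraries, and in points their decreases differed widely (-37.1 and -5.61). As a share of the control level the second lost more, 87.9% against 73.8%.

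The other cation carriers were also lower in CHG. A vacuolar cation/proton exchanger gene (TraesCS2B02G534600), of a family that loads calcium and other cations into the vacuole, was at 42.0% in control and 25.5% in treated seedlings, 172 bp downstream of the gene (2B, 730852994 to 730854519). A probable magnesium transporter gene (TraesCS6A02G189200) was at 9.25% and 1.87% in a region overlapping the gene (6A, 235028723 to 235029965).

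Among pumps, both calcium-transporting ATPase genes, whose products push calcium out of the cytosol, were lower in CHG regions that overlapped them. Of all CHG regions with levels, 78.2% were lower. TraesCS5A02G136200 was at 15.2% in control and 9.35% in treated seedlings (5A, 307353701 to 307355229). TraesCS1A02G332800 was at 4.17% and 0.340% (1A, 521260088 to 521261286), the smallest CHG difference of the transport genes at -3.83 points. The other pump, a phospholipid-transporting ATPase (TraesCS2A02G203300), of a family that moves lipids between the leaflets of a membrane, had no control level and a CHH level of 3.25% in the ultrasound library.

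Glutamate receptors of plants are ligand-gated cation channels, known in Arabidopsis for calcium entry after wounding. Both listed genes were lower, in different contexts, beside 78.2% of all CHG and 77.1% of all CHH regions with levels. TraesCS5B02G217700 was methylated in CHG at 28.5% in control and 17.2% in treated seedlings, in a region that ended 27 bp upstream of the gene (5B, 391758159 to 391758980). This was the shortest distance of any transport region that did not overlap its gene. TraesCS5D02G226300 had a CHH level of 9.23% and 0.100%, 697 bp downstream (5D, 334409494 to 334409880).

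DETOXIFICATION proteins are carriers of the MATE family, which export toxic compounds, organic acids and secondary metabolites in exchange for protons or sodium. Their 8 regions spread over all 3 contexts, and 5 of the 6 with both levels were lower, or 83.3%, beside 76.8% of all listed regions with levels. In CpG, TraesCS7D02G365700 was at 75.6% in control and 56.5% in treated seedlings in a region overlapping the gene (7D, 472539232 to 472539821). In CHG, TraesCS2D02G277400 was at 45.0% and 31.9%, 150 bp downstream (2D, 347790456 to 347791379). TraesCS6A02G256400 was at 22.6% and 15.3% in CHG, 448 bp upstream (6A, 476002289 to 476003491). These 3 genes lost 25.3%, 29.1% and 32.2% of their control level.

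In CHH the DETOXIFICATION genes split between the directions. Each region was listed at 0% in 1 library, which by itself sets the direction of its difference. TraesCSU02G003900 on unplaced sequence was at 15.0% in control and listed at 0% in treated seedlings, 2204 bp downstream (8108086 to 8108419). TraesCS6B02G090100 was at 4.37% and 0%, 180 bp downstream (6B, 65724496 to 65724846). TraesCS3B02G563100 ran the other way, from a listed 0% in control to 25.7% in treated seedlings, 741 bp upstream (3B, 796019825 to 796020329). Its difference ranked 16th among the increases of 668 CHH regions. The remaining DETOXIFICATION genes, TraesCS6B02G440300 and TraesCS6D02G384400, had no control level and CHG levels of 33.2% and 21.1% in the ultrasound library, each in a region overlapping the gene.

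The single anion channel was the other higher region. Chloride channel proteins of plants move chloride or nitrate, in part as exchangers with protons. TraesCS3D02G126700 was listed at 0% in the control library and had a CHH level of 14.5% in the ultrasound library, 1091 bp upstream (3D, 84586179 to 84586464). A listed 0% was common in this context, with 49 of 668 CHH regions at 0% in the control library and 81 at 0% in the ultrasound library, so no fold is given for such regions. A region listed at 0% in the control library can only differ upwards.

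Carriers of sugars and amino acids were few. SWEET proteins let sugars pass membranes in both directions along their gradient. One SWEET gene (TraesCS6B02G015200) was at 15.3% in control and 5.06% in treated seedlings in CHG, 1642 bp downstream (6B, 9055230 to 9056337). A second SWEET gene (TraesCS2B02G055800) had 8.23% in the ultrasound library and no control level, 2099 bp upstream. Lysine histidine transporter-like 8 (TraesCS5B02G095400), named after an Arabidopsis amino acid carrier, had a CHH level of 1.62% in the ultrasound library and no control level. The Sec61 subunit beta gene (TraesCS3B02G234900) was at 9.66% and 1.84% in CHG, 1635 bp upstream (3B, 367482313 to 367484319).

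By context, the CHG regions shared 1 direction. All 11 CHG regions with both levels were lower, where 78.2% of all 1557 CHG regions were lower. Their median difference was -7.82 points beside -8.87 points over all CHG regions, so in size they lay near the middle of the list. Both CpG regions were lower, where 71.7% of all CpG regions were. In CHH 4 of 6 were lower, beside 77.1% of all CHH regions, and 2 were higher, beside 22.9%. These shares were not tested against each other, and counts of 2 to 11 regions leave wide intervals, from 71.5% upwards for CHG and from 22.3 to 95.7% for CHH.

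**Figure D2:**
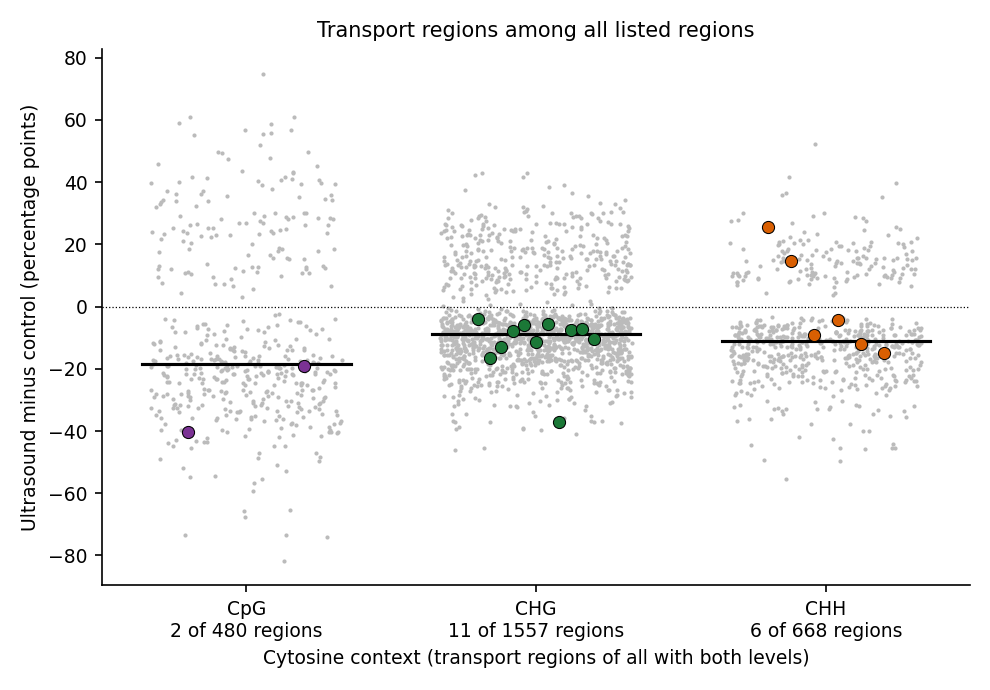
Difference, ultrasound minus control in percentage points (y axis), of every listed region with both levels (grey) and of the transport regions (coloured), by context (x axis). The black line is the median of all listed regions, -18.3 points in CpG, -8.87 in CHG and -11.2 in CHH. Most coloured points lie near it. Well under it lie the exchanger gene at -40.4 points in CpG and the potassium transporter gene at -37.1 points in CHG. The CHH regions at 25.7 and 14.5 points lie well above it.

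Of the 19 transport regions with both levels, 2 were lower by at least 25 points, beside 305 of all 2705 listed regions with levels. The exchanger at -40.4 points was 1 of 2 CpG regions, beside 32.7% of all CpG regions with levels. The potassium transporter at -37.1 points was 1 of 11 CHG regions, beside 5.39% of all CHG regions. The DETOXIFICATION gene at 25.7 points was the single one higher by as much, 1 of 6 CHH regions beside 2.40% of all CHH regions. Counts this small were not tested against these shares.

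Among CHG regions the share of the control level that was lost differed with that level. The 4 transport regions under 10% in the control library (a calcium-transporting ATPase, a potassium transporter, the magnesium transporter and Sec61 subunit beta) lost 79.8% to 91.8% of it and were left at or under 1.87%. The 7 regions with a higher control level lost 29.1% to 73.8%. The medians were 84.4% and 39.3%. Regions that were higher are not in these shares, and none of the 11 was, while 54.3% of all CHG regions under 10% and 85.6% of those from 10% upwards were lower. All CHG regions that were lower showed the same order, with medians of 81.8% under 10% and 47.4% from 10% upwards. The share lost has the control level in its denominator, so a given difference is a larger share at a lower level. Whether this accounts for the order was not tested.

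**Figure D3:**
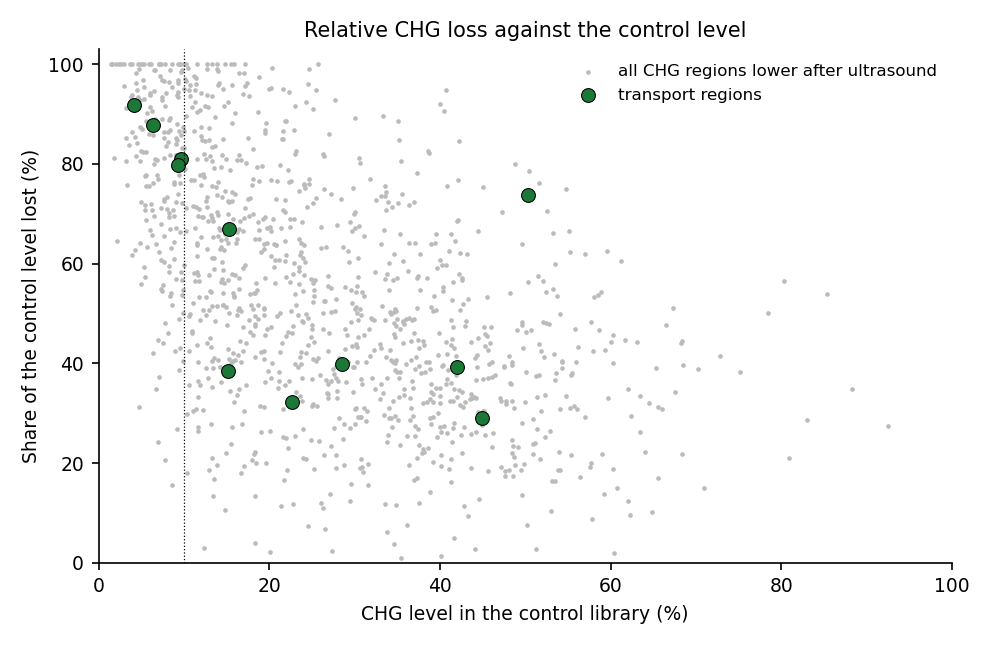
Share of the control CHG level lost in the ultrasound library in percent (y axis) against the control level in percent (x axis), for all CHG regions that were lower (grey) and the 11 transport regions (green). The dotted line marks a control level of 10%. The 4 green points left of it lie between 79.8% and 91.8%.

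Equal numbers of regions, 8 each, overlapped their gene, lay upstream and lay downstream. All 8 downstream regions had both levels and were lower, beside 73.8% of all listed downstream regions. Of the 6 upstream regions with both levels 4 were lower, beside 74.5%, and both higher regions were upstream. All 5 overlapping regions with levels were lower, beside 79.5%. Overlapping regions made up 33.3% of the transport regions and 51.1% of all listed regions. Upstream and downstream are as the lists give them, and whether they follow the strand of the gene is not stated there. Position and context were mixed here, since CHH regions, which included both higher ones, overlapped their gene in 1 of 8 cases. Within CHH, all 4 downstream regions were lower and both upstream regions with levels were higher. The 4 lower upstream regions were all in CHG. Whether position matters within a context was not tested.

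**Figure D4:**
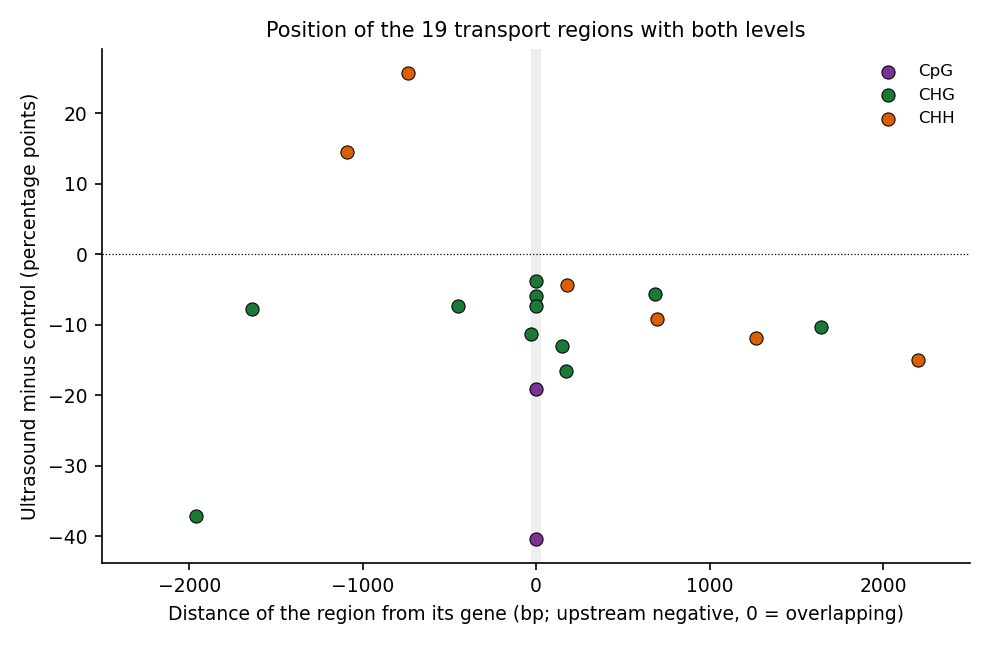
Difference, ultrasound minus control in percentage points (y axis), against the distance in bp between a region and its gene (x axis, upstream negative, 0 for overlapping), for the 19 transport regions with both levels, coloured by context. Both points above 0 are upstream CHH regions, 741 and 1091 bp from their genes, and all 8 downstream points are under 0.

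The 24 regions were spread over the genome. In hexaploid wheat, which holds an A, a B and a D subgenome, 7 lay on A, 9 on B and 7 on D chromosomes, with 1 on unplaced sequence. Of those with both levels, 6 of 6 were lower on A, 5 of 6 on B and 5 of 6 on D, beside 78.1%, 74.8% and 78.1% of all listed regions on these subgenomes. No other listed region of any context lay within 100 kb of a transport region, while 71.6% of all listed regions stood alone in this way. Among regions with a gene description, from which the transport regions came, 77.6% did. The lengths had medians of 1281 bp in CHG and 358 bp in CHH, beside 1364 and 343 bp over all listed regions of the same context.

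Levels of the transport regions were missing on 1 side only. In 5 of the 24 transport regions the control level was missing and the ultrasound level was given, and in none the reverse. Over all 3119 listed regions, 260 lacked only the control level, 49 only the ultrasound level and 105 both levels. The 5 regions entered no count of directions, and how they came to be listed without a control level is not given in the sources used here.

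Related genes outside the word rule, chosen by words for carriers, pumps, calcium signalling, lipid transfer and vesicle traffic, gave 24 further regions, of which 14 of 18 with both levels were lower, or 77.8%, close to the 76.8% of all listed regions. An auxin efflux carrier gene (TraesCS7B02G398100), which moves auxin out of cells and is a transporter by function, was at 40.4% in control and 18.4% in treated seedlings in CHG. A non-specific lipid-transfer protein gene (TraesCS3B02G063700) was at 37.1% and 13.3% in CHG, and the other lipid-transfer gene (TraesCS3B02G455200) was higher, at 0.275% and 12.3% in CHH. Genes of Exo70, a subunit of the exocyst that tethers secretory vesicles, had 6 regions, of which 4 were lower and 2 higher. Among the lower ones, TraesCS2B02G045000 was at 27.6% and 3.69% in CHH, and TraesCS2A02G541100 at 25.9% and 2.73% in CpG. The higher ones were TraesCS2A02G031600, at 12.7% and 22.7% in CHG, and TraesCS2B02G293700, listed at 0% and at 15.3% in CHH. The remaining higher region of these words was that of subunit G of the V-type proton ATPase (TraesCS2B02G457800), the vacuolar proton pump, at 0.556% and 7.79% in CHH. All 4 regions matched by calcium signalling words, from 3 genes, lacked a control level, as did 365 of all 3119 listed regions. Among the 4 was calcineurin B-like protein 1 (TraesCSU02G178500), listed in both CpG and CHG. The words also caught 3 regions of enzymes that act on acyl carrier protein and a proteasome subunit named for not being an ATPase, none of which is a carrier. Further matches were a secretory carrier-associated membrane protein, a transmembrane 9 superfamily member and heptahelical transmembrane protein 1. Their descriptions name no transported solute. All these matches are among the 24 further regions and, where both levels were given, in the 77.8%.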

How the data were processed

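The authors deposited 3 lists of regions, for CpG, CHG and CHH, with a methylation level in percent per region and library, per the file headers. The authors' file names mention chi-square and edgeR. The authors' tools were Bismark 0.23.1, Trim Galore 0.6.7, FastQC 0.11.9 and edgeR, with no roles stated, per the submitters' processing notes. Genome build, thresholds, averaging of sites and coverage: not given in the sources used here. Any selection on a difference can favour large or well covered ones, so the values describe the listed regions only.

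Differences, ranks within a context, medians with order-statistic intervals and shares with 95% Clopper-Pearson intervals were computed with Python 3.11.15, NumPy 2.4.6, pandas 2.3.3 and SciPy 1.17.1, and the interval code was checked on simulated data. With 1 library per group no p-value was computed. Regions lacking a level were left out of directions and medians. Positions are those of the lists. None of the 24 genes matched the reference gene table, so no sequence is shown. The genes, families, related words and the rule for named genes (all regions with both levels, the 2 largest differences per family, the 4 largest among related genes) were chosen with earlier results of these data known. The V-type ATPase subunit, calcineurin B-like protein 1, the other lipid-transfer gene and the higher Exo70 genes were named after their values were seen, as was the class of control levels under 10%.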

Additional observations from a re-analysis of the deposited data

How the results depend on the processing

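The share of transport regions lower in the ultrasound library, 89.5%, stayed within its interval when differences under 10 points were left out (81.8%, 9 of 11). It was 88.9% without Sec61 and 85% with chloroplast or mitochondrial descriptions kept. Each of these changed only 1 region and could not have moved the share out of its interval, so they are no check. It was 66.7% (2 of 3) for differences of at least 25 points and 66.7% (4 of 6) for CHH alone. It was 100% for regions overlapping the gene (5 of 5), for CpG alone (2 of 2), for CHG alone (11 of 11) and without regions listed at 0% in a library (15 of 15). The last was chosen after seeing the data and is no check, because both higher regions were at 0% in the control library and are removed by it. The median difference, -9.13 points, was -37.1 for differences of at least 25 points and -29.8 for CpG alone, and all other alternatives left it within its interval. Relative to the higher of both levels it was -67.0%, which is another scale. With fewer regions these values rest on 2 to 15 regions. Counting each gene once, merging regions within 10 kb and taking a log2 ratio could not change a count or a direction by their construction, since each gene had 1 region, none had a neighbour and the ratio keeps the sign. No paired analysis was possible because levels of 1 library per group were analysed and pairs need more, and no library was left out for the same reason. The stricter overlap between contexts gave no value, since no CpG and CHG transport regions overlapped. Read depth, and with it the counting error of a level, is unknown.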

Other observations

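An ABC transporter gene was left out by the word rule because its description names the chloroplast. ABC transporter I family member 11 (TraesCS3B02G432400), of a family of ATP-driven carriers, was methylated in CHG at 48.2% in control and 65.2% in treated seedlings over a stretch overlapping it (3B, 671672331 to 671673320). It was higher by 17.0 points, the opposite direction to the 11 CHG transport regions with both levels. Of all 1557 CHG regions with levels, 339 were higher. With the ABC transporter gene included, 17 of 20 transport regions were lower, or 85%, beside 76.8% of all listed regions with levels.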
